A study of Rattus norvegicus with 12 samples.

Results

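The response of L6 myotubes to GR24 was read from 6 of the 12 arrays of the series, the 3 with the treatment label of 60 microM GR24 and the 3 with the label control. L6 cells come from rat skeletal muscle and were obtained from ATCC. The myoblasts of this line stop dividing and fuse into multinucleated myotubes when serum is lowered. The myotubes of both groups had differentiated in 2% horse serum, for 6 days by the labels and for longer by the methods of the paper. They then received 60 µM GR24 in DMSO, or DMSO alone as the control, for 24 h. Each group came from 3 experiments with 1 array each, all on the same cell line. A p-value rests on the spread between cultures within all 4 groups of the series, moderated across probes. The slides that carried the arrays did not enter the main fit. The other 6 arrays carry myotubes treated with pinosylvin or resveratrol. They enter the fit, its p-values and the choice of probes, and their own values appear only where they are named.

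GR24 is a synthetic analog of strigolactones, plant hormones that shape branching and the contact of roots with fungi. In muscle differentiation, the transcription factors *Myod1* and *Myf5* commit a cell to the lineage, *Myog* then drives the genes of the contractile apparatus together with the MEF2 proteins, and the cell leaves the cell cycle. A myotube culture usually also holds mononucleated cells that did not fuse, and these can go on dividing.

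The arrays were of 1 colour, with 58717 spots besides the control spots. Signal was well above background in 62.2%, 59.5% and 64.3% of the spots on the control arrays of replicates 1, 2 and 3, and in 60.2%, 58.0% and 62.5% on the GR24 arrays. Values are log2 intensities relative to the 75th percentile of their own array, a scale on which levels of different probes cannot be compared. Across the 24279 probes tested, Pearson's r was 0.990 to 0.996 between control arrays, 0.990 to 0.996 between GR24 arrays and 0.954 to 0.962 between a control and a GR24 array. Probes are not independent replicates, and with 3 arrays a group the precision rests on few cultures.

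The comparison asks how myotubes respond to GR24 across all genes, and the weight here lies on genes outside the Nrf2 targets that the study tabulated. The response was broad, and its decreases were the larger changes. With GR24, 7658 of 24279 probes (31.5%) were higher and 6196 (25.5%) were lower by limma's moderated test at an adjusted p of 0.05. Of the 10684 named genes outside the study's table, counted with 1 probe each, 3819 (35.7%) were higher and 2869 (26.9%) were lower, and the median log2 fold change was 0.07. All 3 GR24 arrays lay below all 3 control arrays in 3051 genes (28.6%) and above them in 4068 genes (38.1%). These shares are the background for each count of list members that follows. Since the arrays measure RNA of whole cultures, fewer cells of a type and less RNA per cell cannot be told apart.

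Increases were more numerous, but large changes were mostly decreases. Genes lower by over 2-fold numbered 1104 (10.3%), against 590 (5.52%) that were higher by over 2-fold. Past 4-fold there were 344 decreases and 82 increases, past 8-fold 111 and 13, and past 16-fold 18 and 1. Some of these probes were at background in a whole group. Among the 9828 genes well above background on all 6 arrays, 232 fell and 33 rose by over 4-fold, 63 fell and 1 rose by over 8-fold, and 12 fell and 0 rose by over 16-fold. The typical decrease was a log2 fold change of -0.77 (quartiles -1.34 and -0.43) and the typical increase 0.56 (quartiles 0.40 and 0.83). The choice of the scaling moves the median of all probes by up to 0.10, from 0.03 to 0.13 where the percentile is taken over all spots, so changes of that size have no settled direction.

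**Figure D1:**
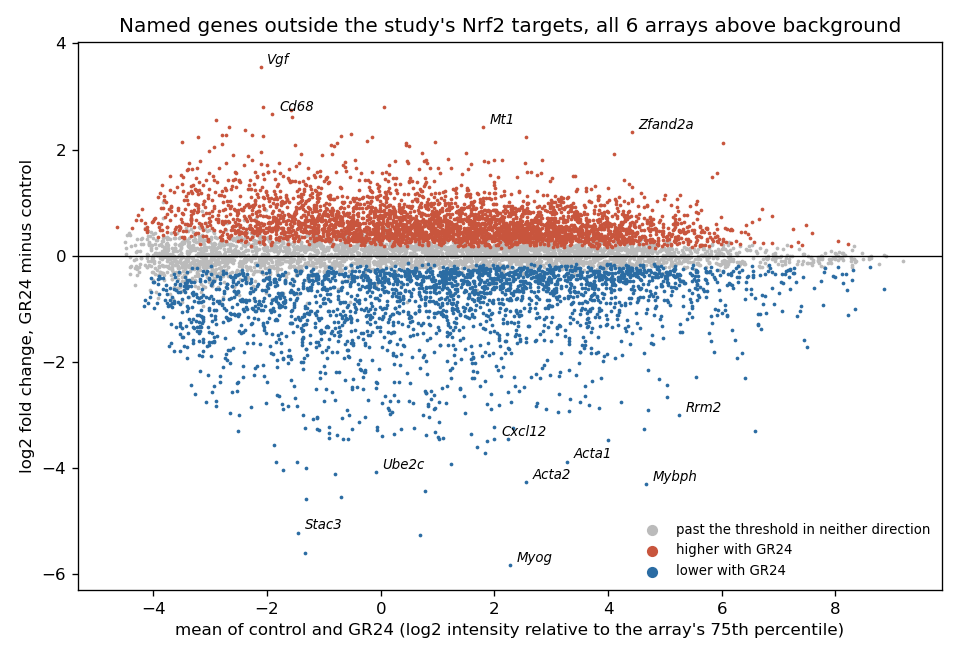
Log2 fold change of GR24 over control against the mean log2 intensity, relative to each array's 75th percentile, for the 9828 named genes outside the study's table with signal well above background on all 6 arrays. Each point is 1 gene, and 12 genes lie past a 16-fold decrease while 0 lie past a 16-fold increase.

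The label of skeletal muscle myotubes was checked against 12 marker genes of differentiated muscle. *Mymk* had no named probe, and the other 11, *Myog*, *Acta1*, *Actc1*, *Ckm*, *Myh3*, *Tnnt1*, *Tnnc1*, *Des*, *Chrna1*, *Cav3* and *Atp2a1*, were well above background on all 6 arrays. Embryonic myosin heavy chain, *Myh3*, read 8.84, 8.97 and 8.75 on the control arrays and 7.90, 7.83 and 7.81 with GR24, a log2 fold change of -1.0 (standard error, SE, 0.072, adjusted p = 9.17e-07). The GR24 arrays were all lower, without overlap. Desmin, *Des*, the muscle intermediate filament, read -1.18, -1.37 and -1.56 in the control and -1.35, -1.57 and -1.45 with GR24, and *Chrna1*, the alpha subunit of the acetylcholine receptor, -1.41, -1.55 and -0.89 against -1.97, -2.37 and -1.20. Those markers overlapped between the groups, with log2 fold changes of -0.09 (adjusted p = 0.566) and -0.56 (adjusted p = 0.138). Without GR24 replicate 3, *Chrna1* passed the threshold at -0.89, and with the replicate block it passed at -0.56 (adjusted p = 0.00256). Its call thus depends on which arrays are used and on how they are matched.

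Markers of other cells were mostly at background. Of 8 macrophage and leukocyte markers 2 were tested, of 8 adipocyte markers 1, of 7 endothelial markers 3, of 9 bone and cartilage markers 5 and of 7 neural and glial markers 3. The pan-leukocyte marker *Ptprc* and the fat cell marker *Adipoq* were on the array and not tested, being too dim in every group. In the endothelial list 0 genes were higher and 0 lower, with a median of -0.44. In the bone and cartilage list 2 were lower, among them *Alpl*, an alkaline phosphatase, by a log2 fold change of -2.39, and the median was -0.30. The neural and glial list had 2 lower and a median of -0.86. Its lower genes, *Map2* (-0.88) and *Tubb3* (-0.86), encode microtubule proteins. The adipocyte list is represented by the transcription factor *Cebpa* alone, which read 0.69, 0.82 and 0.69 in the control and 1.94, 1.94 and 1.85 with GR24 (log2 fold change 1.18, adjusted p = 1.91e-07). The macrophage and leukocyte markers had 1 higher and 0 lower with a median of 1.32. Of these *Csf1r* did not pass the threshold (-0.03), whereas the lysosomal protein gene *Cd68* was higher and read -3.59, -3.23 and -2.90 in the control and -0.60, -0.49 and -0.63 with GR24.

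Markers of fibroblasts and undifferentiated cells moved in the same direction as the muscle genes. Of 16 listed, 14 were tested, 9 were lower and 2 higher, and the median was -0.70. The mean log2 intensity over the markers tested was 1.38, 1.39 and 1.38 on the control arrays and 0.81, 0.78 and 0.85 on the GR24 arrays, so that the groups were apart. *Fap*, a surface protease of activated fibroblasts, had a log2 fold change of -1.20, *Vim*, the intermediate filament of mesenchymal cells, -0.91, *Thy1*, a surface glycoprotein, -0.90, and *Pdgfrb*, a growth factor receptor, -0.83. The higher genes were *Pdgfra*, the sister receptor (0.23, adjusted p = 0.0182), and *Cd44*, a hyaluronan receptor (0.23, adjusted p = 0.014). Both calls were lost without control replicate 3 (0.16 and 0.19), without GR24 replicate 1 (0.21 and 0.20) and without GR24 replicate 2 (0.21 and 0.20). The part of any cell type in the decreases was not tested.

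The factors that switch on muscle genes come first, because the largest decrease lay among them. *Myog*, the differentiation factor, read 5.24, 5.25 and 5.08 on the control arrays and -0.38, -1.05 and -0.50 on the GR24 arrays. The gap between the groups was many times the spread within either. Its signal was 57.0-fold lower, with a log2 fold change of -5.83 and SE of 0.15 (adjusted p = 5.53e-10). *Myf5*, a commitment factor, read 2.38, 2.33 and 2.47 in the control and 1.49, 1.58 and 1.48 with GR24 (log2 fold change -0.88, adjusted p = 1.21e-05). This was a far smaller fall than that of *Myog*, without overlap. *Myod1* was at -4.04, -4.04 and -3.97 in the control and not well above background on any GR24 array.

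Cofactors of the same programme fell too. *Rbm24*, an RNA-binding protein that steers splicing in muscle, read 3.24, 3.28 and 3.27 in the control and -0.01, -0.17 and -0.10 with GR24, with a log2 fold change of -3.36 and SE of 0.078 (adjusted p = 3.57e-10). *Smyd1*, a muscle methyltransferase that acts with myosin chaperones, read -0.86, -0.81 and -0.87 against -4.39, -4.32 and -3.77, with a log2 fold change of -3.31 and SE of 0.13 (adjusted p = 1.38e-08). In both genes the control arrays lay close together and every GR24 array was lower. *Srf*, the serum response factor, fell by 0.80. By contrast the homeodomain factor *Six4* (0.73), which acts at the start of myogenesis, was higher, and *Mef2d* did not pass the threshold by its brightest probe (0.01, adjusted p = 0.916) but was higher with its tested probes averaged (0.57). Of 22 transcription factors and cofactors of myogenesis listed, 19 had a named probe and 16 were tested. Of these 9 were lower and 3 higher, and the median was -0.64, and in 9 every GR24 array lay under the 9 other arrays of the series. For the 14 members well above background on all 6 arrays, 7 were lower and 3 higher, and the median was -0.42.

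The sarcomere, the contractile unit of actin and myosin filaments held between Z-discs, was lower almost throughout. *Mybph*, a myosin-binding protein, read 6.88, 6.90 and 6.66 on the control arrays and 2.67, 2.48 and 2.38 on the GR24 arrays, and was 19.7-fold lower (log2 fold change -4.30, SE 0.10, adjusted p = 4.11e-10). *Acta1*, the actin of adult skeletal muscle, read 5.29, 5.30 and 5.07 against 1.37, 1.28 and 1.37 and was 14.8-fold lower. *Actc1*, the cardiac actin that immature myotubes also use, read 6.14, 6.29 and 6.05 against 3.24, 3.22 and 3.33, and was 7.45-fold lower. No array of either group came near the other group in these 3 genes.

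The decrease reached each part of the sarcomere. At the M-line, *Myom1*, a crosslinker of thick filaments, had a log2 fold change of -3.40, and at the Z-disc *Ldb3* had -2.88, *Myot* -2.04 and *Tcap* -1.59. Among the myosin heavy chains, the adult fast forms *Myh4* (-2.20) and *Myh1* (-1.92), the slow form *Myh7* (-1.88) and the perinatal form *Myh8* (-1.84) all fell by more than the embryonic *Myh3* (-1.0). In the thin filament, troponin I of fast fibres, *Tnni2*, had -1.82 and slow troponin T, *Tnnt1*, had -1.67. *Klhl41*, which stabilises thin filaments, had -2.28. An exception was *Actn3*, the Z-disc actinin of fast fibres. It read -3.89, -3.87 and -3.82 in the control and -2.81, -3.24 and -3.44 with GR24, and was higher (log2 fold change 0.69, adjusted p = 0.00714). Of 56 sarcomere genes listed, 44 had a named probe and 40 were tested, of which 35 were lower, 31 of them by over 2-fold, and 1 was higher. Their median was -1.63. For the 38 members well above background on all 6 arrays it was also -1.63, with 34 lower. In 34 sarcomere genes every GR24 array lay under the 9 other arrays, as did those of 2301 of all 10684 genes.

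The machinery that turns a nerve impulse into a calcium signal followed. *Stac3*, which ties the voltage sensor of the cell membrane to the calcium release channel, read 1.14, 1.24 and 1.09 on the control arrays and -3.99, -3.93 and -4.25 on the GR24 arrays, and was 37.2-fold lower (SE of the log2 fold change 0.11, adjusted p = 2.4e-10). *Cacna1s*, the voltage sensor itself, read 1.12, 0.93 and 0.79 against -0.48, -0.37 and -0.59, and its subunits *Cacnb1* and *Cacng1* had log2 fold changes of -1.98 and -2.30. The calcium pump *Atp2a1* read 3.95, 3.96 and 3.83 against 2.05, 1.90 and 1.89, and *Sln*, a small inhibitor of that pump, had -2.92. Thus sensor, coupler, pump and pump inhibitor were all lower, with no overlap in any. Of 27 genes of excitation-contraction coupling listed, 24 had a named probe and 19 were tested, 15 lower and 1 higher with a median of -1.15. The higher gene was the lipid phosphatase *Mtm1* (0.76), and the housekeeping calcium pump *Atp2a2* was not past the threshold by its brightest probe (-0.05, adjusted p = 0.616) but was lower with its tested probes averaged (-0.93).

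At the neuromuscular junction, where acetylcholine receptors are clustered under the nerve ending, all 14 listed genes were tested, 12 were lower and 0 higher, and the median was -0.95. *Rapsn*, the scaffold that clusters the receptors, read 1.79, 1.70 and 1.60 in the control and 0.34, 0.24 and 0.17 with GR24 (log2 fold change -1.45, adjusted p = 1.28e-06). The receptor subunits *Chrnb1* (-1.27) and *Chrnd* (-1.15), the enzyme *Ache* (-1.22) that splits acetylcholine, and *Dok7* (-1.22), an adaptor of the receptor kinase *Musk* (-0.76), were lower with it. *Colq*, which anchors that enzyme, was not well above background on any GR24 array and was at least 4.09-fold lower. Such a bound sets the mean of the group with signal against a value for each array of the other group. That value is the probe's own signal or the array's lowest signal called well above background, whichever is higher. The bound holds for this background correction and against these values only. Some probes were not called well above background at signals over that lowest one, so their own limit may lie higher.

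Dystrophin and its partners link the contractile apparatus to the membrane and to the matrix outside. Of 22 genes listed here 19 had a named probe and 18 were tested, with 15 lower, 0 higher and a median of -1.15. *Itgb1bp2*, melusin, an integrin partner of muscle, read 1.10, 1.14 and 0.66 in the control and -3.49, -3.64 and -3.70 with GR24 and was 23.9-fold lower. *Cav3*, the caveolin of muscle, read 6.25, 6.36 and 6.16 against 3.88, 3.88 and 3.68 and was 5.42-fold lower. Both genes had wide gaps between the groups. *Trim72*, which patches torn membrane, was at least 9.76-fold lower and *Dmd*, dystrophin, at least 3.21-fold lower. The sarcoglycan *Sgca* (-1.08) and the integrin *Itga7* (-1.05) were lower.

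Fusion, energy supply and size control complete the muscle genes. Of 19 fusion genes only 7 were tested, 4 lower and 0 higher with a median of -0.91. Among them was *Cdh15*, the cadherin of myoblasts, at 3.00, 3.15 and 2.70 in the control and 1.38, 1.21 and 1.14 with GR24. Of 16 muscle energy enzymes tested 11 were lower and 3 higher, and the median was -0.78. *Ckm*, muscle creatine kinase, read 2.19, 2.15 and 1.89 against -0.41, -0.51 and -0.59 (log2 fold change -2.58, adjusted p = 9.64e-08), and *Slc2a4*, the glucose transporter that responds to insulin, 0.80, 0.74 and 0.71 against -0.47, -0.58 and -0.45 (-1.25, adjusted p = 9.01e-08). *Cdh15*, *Ckm* and *Slc2a4* each showed all GR24 arrays under all control arrays. The glycogen phosphorylase *Pygm* had -1.32 and the fatty acid carrier *Fabp3* -1.12. Of 10 genes of atrophy and myostatin signalling 5 were lower and 3 higher, and the median was -0.27. *Fst*, follistatin, which binds and blocks myostatin, read 6.08, 6.10 and 5.99 in the control and 3.73, 3.77 and 3.68 with GR24, a log2 fold change of -2.33. The atrophy ligase *Trim63* had -0.40, the related *Trim54* 0.90 and the transcription factor *Foxo3* 0.54, and *Fbxo32*, another atrophy ligase, was not past the threshold (-0.21), but passed it at -0.41 without control replicate 3.

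**Figure D2:**
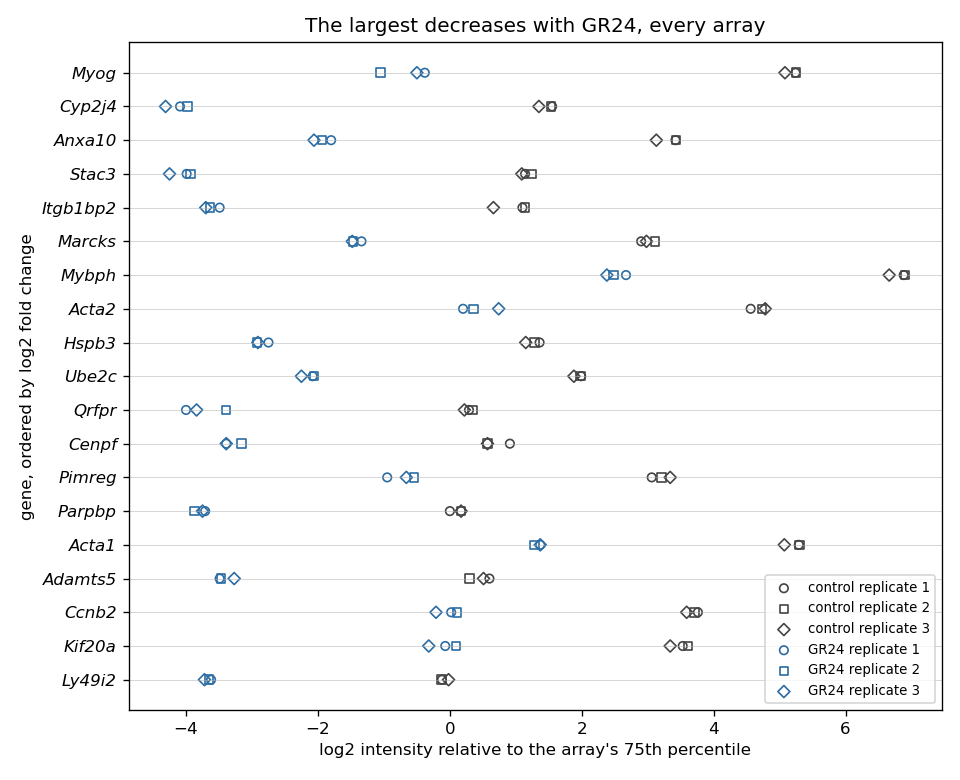
Log2 intensity relative to each array's 75th percentile for the largest decreases among named genes well above background on all 6 arrays, with 1 marker per array. In each gene the 3 GR24 arrays lie below the 3 control arrays, for *Myog* at -0.38, -1.05 and -0.50 against 5.24, 5.25 and 5.08.

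Genes of mitosis, which build the spindle and part the chromosomes, were lower without exception among those tested. Of 48 listed, 42 had a named probe and 41 were tested, and 41 were lower, 41 of them by over 2-fold, with a median of -2.75. *Cdk1*, the kinase that starts mitosis, read 5.08, 5.12 and 5.02 in the control and 2.29, 2.29 and 2.20 with GR24, 7.03-fold lower (SE of the log2 fold change 0.065, adjusted p = 3.55e-10). *Ccnb2*, its cyclin, read 3.76, 3.71 and 3.59 against 0.02, 0.11 and -0.21 and was 13.1-fold lower. *Ube2c*, the ubiquitin-conjugating enzyme that helps to end mitosis, read 1.99, 1.98 and 1.88 against -2.08, -2.06 and -2.25 and was 16.9-fold lower. RNA of these mitotic genes was thus measured in the control cultures, and the GR24 values lay far under the control values in all 3 experiments. Which cells carried it, and whether they divided, was not tested.

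Further mitotic genes covered each step. The kinetochore proteins *Cenpf* (-4.0) and *Ndc80* (-2.30), the spindle motors *Kif20a* (-3.60) and *Kif11* (-3.43), the kinases *Plk1* (-3.24) and *Aurkb* (-2.77), the separase *Espl1* (-3.28) and the spindle checkpoint gene *Bub1b* (-2.74) fell. *Foxm1*, a transcription factor that drives mitotic genes, had a log2 fold change of -2.40, and *Mki67*, the proliferation marker Ki-67, had -2.83. The smallest decreases were those of *Incenp* (-1.04), a passenger protein of chromosomes, and *Smc2* (-1.08), a condensin subunit. On the arrays of slide 1 alone the median of the list was -2.73, and for the pair of arrays on slide 2 it was -2.82. In 37 of the genes every GR24 array lay under the 9 other arrays.

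DNA replication genes fell less deeply. Of 56 listed, 49 had a named probe and 48 were tested, 45 lower, 32 of them by over 2-fold, and 1 higher, with a median of -1.30. *Rrm2*, which makes the building blocks of DNA, read 6.68, 6.83 and 6.71 in the control and 3.73, 3.79 and 3.70 with GR24, 8.01-fold lower. *Mcm7*, of the helicase that opens DNA, read 4.08, 4.10 and 4.08 against 2.30, 2.32 and 2.14, and was 3.57-fold lower. *Pcna*, the sliding clamp, read 3.94, 3.91 and 3.94 against 3.41, 3.48 and 3.37, a log2 fold change of only -0.51 (SE 0.061, adjusted p = 3.82e-05). The arrays were apart in these genes, but the sizes differed widely. Thymidine kinase *Tk1* (-2.78), the licensing factor *Cdc6* (-2.14) and the repair genes *Fancd2* (-1.88) and *Brca1* (-1.64) were lower, as was *E2f1* (-0.66), a transcription factor of S phase genes.

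The genes that hold cells out of the cycle had shares near those of all genes, 35.7% higher and 26.9% lower. Of 23 inhibitors of cyclin-dependent kinases and growth arrest genes tested 7 were higher and 7 lower, with a median of 0.10. *Cdkn1c*, the inhibitor p57 that helps myoblasts to leave the cycle, read 1.21, 1.22 and 0.94 in the control and -1.33, -1.56 and -1.86 with GR24, 6.53-fold lower. *Gadd45g*, a growth arrest gene, read 4.33, 4.42 and 4.04 against 2.02, 1.98 and 2.03 and was 4.78-fold lower. Both fell with no overlap between the groups. *Mdm2*, a ubiquitin ligase, was higher (0.65). *Cdkn2c*, the inhibitor p18, had -1.06 and *Plk3*, a stress kinase, 1.09. *Cdkn1b*, the inhibitor p27, was higher (0.64, adjusted p = 0.000146), and *Cdkn1a*, the inhibitor p21, was not past the threshold (-0.15, adjusted p = 0.058), though it passed with the replicate block. Of 16 genes of the Bcl2 family, which sets the threshold of cell death, 8 were higher and 3 lower with a median of 0.31. *Bid*, a death promoter, read -2.38, -2.47 and -2.79 in the control and -0.40, -0.45 and -0.52 with GR24 (log2 fold change 2.09, adjusted p = 5.12e-07). The death promoter *Bmf* (1.02) and the survival gene *Mcl1* (0.74) were higher as well, and *Bok* (-0.94) was lower. The death promoter *Bik* fell at least 2.47-fold, to a signal at background on every GR24 array. For the 13 members well above background on all 6 arrays, 7 were higher and 1 lower, with a median of 0.38.

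Genes that move together often share letters in their promoters, so the 250 bases upstream of gene starts were searched on both strands in the RefSeq promoter table of the rat build GRCr8, with the start listed first for each gene. The table matched 33 of the 41 mitotic genes tested. CCAAT, a box of many cell cycle promoters, was present in 25 of them (75.8%) and in 34.3% of all 27457 promoters and 36% of the 8788 of tested genes, the shares given in this order from here on. TTTGAA, the core of the cell cycle homology region, was present in 19 (57.6%, against 16% and 10.8%), and both together in 17 (51.5%, against 5.76% and 4.12%). For replication genes, TTTNNCGC, a form of the E2F motif, was present in 9 of 40 (22.5%, against 4.35% and 7.13%). A match describes the letters and is no evidence of binding. The promoters of *Ccnb2* (chr8:79981659-79981908, minus strand), *Cdk1* (chr20:19265043-19265292, plus strand) and *Cdc20* (chr5:137255800-137256049, minus strand), which encodes the activator of the ligase that ends mitosis, were chosen because they hold both motifs. Capitals mark CCAAT, its reverse complement ATTGG, and TTTGAA.
Ccnb2: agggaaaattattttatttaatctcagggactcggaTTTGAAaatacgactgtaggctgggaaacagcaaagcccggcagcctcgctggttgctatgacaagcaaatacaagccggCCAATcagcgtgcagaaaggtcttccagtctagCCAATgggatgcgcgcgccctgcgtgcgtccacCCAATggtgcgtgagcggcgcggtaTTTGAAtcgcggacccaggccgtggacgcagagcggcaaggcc
Cdk1: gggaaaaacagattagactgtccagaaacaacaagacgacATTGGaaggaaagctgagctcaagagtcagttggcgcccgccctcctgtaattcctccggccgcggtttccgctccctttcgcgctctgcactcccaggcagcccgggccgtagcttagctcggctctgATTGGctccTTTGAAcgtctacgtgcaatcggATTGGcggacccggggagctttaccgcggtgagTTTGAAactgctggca
Cdc20: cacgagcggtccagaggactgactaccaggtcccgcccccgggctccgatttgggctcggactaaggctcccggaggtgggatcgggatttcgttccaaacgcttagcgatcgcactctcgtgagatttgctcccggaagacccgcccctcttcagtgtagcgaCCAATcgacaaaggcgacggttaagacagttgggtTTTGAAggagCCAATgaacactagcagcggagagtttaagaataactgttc

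Muscle promoters were searched for CAGCTG, a form of the CANNTG box that myogenic factors bind, for CANNTG as a whole, and for the MEF2 element and the serum response element. Of the 40 sarcomere genes tested, 31 had a promoter in the table. CAGCTG was present in 12 (38.7%, against 11.9% of all promoters and 12.1% of those of tested genes), CANNTG, which includes it, in 25 (80.6%, against 65.2% and 56.9%), the MEF2 element in 5 (16.1%, against 1.74% and 1.12%) and the serum response element in 4 (12.9%, against 1.5% and 1.15%). CAGCTG was also present in 6 of 15 genes of excitation-contraction coupling (40.0%) and in 5 of 10 of the neuromuscular junction (50%), and the MEF2 element in 1 of those 15 (6.67%). The MEF2 element was searched as CTAWWWWTAR, where W is A or T and R is A or G. The promoter of *Myog* held 0 matches to CAGCTG and 0 to the MEF2 element as searched, which says only that these letters are not in that window. The window does hold CTATATTTAT, which differs from the searched form in its last letter, and the CANNTG boxes CACATG and CAGTTG. The promoters of *Stac3* (chr7:65228225-65228474, plus strand), *Cav3* (chr4:147137743-147137992, plus strand) and *Acta1* (chr19:68784195-68784444, minus strand) were chosen because they hold matches. Capitals mark CAGCTG, in *Cav3* also the MEF2 element and in *Acta1* also the serum response element.
Stac3: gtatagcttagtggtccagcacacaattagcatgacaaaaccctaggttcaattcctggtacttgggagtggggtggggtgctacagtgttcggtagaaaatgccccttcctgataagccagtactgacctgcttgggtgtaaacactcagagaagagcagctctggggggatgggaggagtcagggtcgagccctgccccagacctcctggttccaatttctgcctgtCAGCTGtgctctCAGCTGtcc
Cav3: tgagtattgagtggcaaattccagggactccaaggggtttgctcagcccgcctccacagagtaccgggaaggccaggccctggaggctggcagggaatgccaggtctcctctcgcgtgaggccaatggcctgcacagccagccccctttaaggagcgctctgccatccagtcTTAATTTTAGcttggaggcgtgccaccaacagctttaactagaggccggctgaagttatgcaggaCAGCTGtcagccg
Acta1: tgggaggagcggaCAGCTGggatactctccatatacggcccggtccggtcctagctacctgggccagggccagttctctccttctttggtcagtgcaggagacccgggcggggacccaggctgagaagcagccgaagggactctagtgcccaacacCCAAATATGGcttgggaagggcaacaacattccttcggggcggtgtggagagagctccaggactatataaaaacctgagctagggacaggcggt

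The actin cytoskeleton and the targets of the factors SRF and YAP, which read its tension, formed another block of decreases. Of 21 listed, 19 had a named probe and 17 were tested, with 15 lower, 10 of them by over 2-fold, 0 higher and a median of -1.11. *Acta2*, the actin of smooth muscle, read 4.56, 4.73 and 4.78 in the control and 0.20, 0.36 and 0.74 with GR24 and was 19.1-fold lower (adjusted p = 3.67e-09). *Ankrd1*, a stretch-response gene, read 8.21, 8.38 and 8.14 against 5.09, 4.86 and 4.88 and was 9.83-fold lower. *Ccn2*, a matricellular growth factor, read 7.27, 7.31 and 7.23 against 5.41, 5.52 and 5.40 and was 3.55-fold lower. Each of these genes was clearly lower on every GR24 array than on any control array. *Ccn1* (-1.66), *Tagln* (-1.30) and *Smtn* (-1.33), smooth muscle and matricellular genes, and *Zyx* (-0.78), of focal adhesions, were lower. The serum response element was present in 1 of the 10 promoters found for this list (10%).

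Extracellular matrix genes were lower as a group. Of 51 listed, 41 had a named probe and 36 were tested, 29 lower and 2 higher, with a median of -0.66. *Thbs2*, a thrombospondin, read 5.36, 5.16 and 5.30 in the control and 2.45, 2.43 and 2.36 with GR24, 7.27-fold lower. *Col3a1*, a fibrillar collagen, read 7.03, 7.08 and 6.99 against 5.46, 5.57 and 5.31, 3.01-fold lower. Collagens with smaller decreases were *Col5a1* (-0.88), *Col1a1* (-0.81) and *Col1a2* (-0.47), so that fibrillar collagens fell by unequal amounts. The proteoglycan *Vcan* (-1.87), *Tnc* (-1.48), an adhesion-modulating glycoprotein, and *Fn1* (-0.51), fibronectin, were lower. The enzyme *Plod1*, which hydroxylates lysine in collagen, was higher (0.76). Outside the list, *Adamts5*, a protease that cuts proteoglycans, read 0.60, 0.30 and 0.51 in the control and -3.49, -3.47 and -3.27 with GR24 and was 14.7-fold lower.

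Growth factor pathways that steer muscle and matrix differed from list to list. Of 22 TGF-beta and BMP genes tested 13 were lower and 4 higher, and the median was -0.35. The ligand *Tgfb3* read 3.17, 3.04 and 3.00 in the control and 1.22, 1.15 and 1.07 with GR24 (log2 fold change -1.92, adjusted p = 1.17e-08), and the ligands *Inhba* (-1.32) and *Bmp2* (-1.26) and, by 1 probe, the receptor *Tgfbr2* (-0.87) were lower. The inhibitor *Smad7* was higher and read 0.33, 0.30 and 0.39 against 1.38, 1.28 and 1.07. For *Tgfbr2* the value is that of its brightest probe, and another probe was higher (0.42, adjusted p = 0.0126), so the receptor has no single direction. The ligands named were lower and the inhibitor higher. Of 16 Id, Notch and related repressor genes 4 were higher and 4 lower, and their median was -0.06 in this scaling and 0.04 with the percentile over all spots. The receptor *Notch1* read 1.00, 0.60 and 0.82 against -1.30, -1.28 and -1.48, a log2 fold change of -2.16. *Id2*, which blocks myogenic factors from binding DNA, read -0.50, -0.63 and -0.78 against 0.64, 0.55 and 0.53, a log2 fold change of 1.22, and *Hes1*, a Notch target, had 0.65.

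In the Wnt list of 17 tested genes 5 were higher and 8 lower, with a median of -0.21. The receptor *Fzd4* read 2.35, 2.27 and 2.34 in the control and -0.21, -0.16 and -0.15 with GR24, and its log2 fold change was -2.49. The receptor *Fzd2* (-0.90) and the signal transducer *Ctnnb1* (-0.54) were lower, and the ligand *Wnt4* (0.55) was higher. Of 19 genes of IGF and insulin signalling 5 were higher and 7 lower, with a median of -0.17. Among the higher is *Igf1* by its brightest probe alone (0.25), while its other probes were lower, as given below. *Igf1r*, the IGF1 receptor, read 4.66, 4.56 and 4.32 in the control and 3.33, 3.18 and 3.09 with GR24, with a log2 fold change of -1.32 and SE of 0.097 (adjusted p = 1.15e-06). *Insr*, the insulin receptor, read -3.74, -3.87 and -3.35 against -2.29, -2.58 and -2.34, with a log2 fold change of 1.25 and SE of 0.15 (adjusted p = 5.25e-05). These related receptors thus changed in opposite directions, each without overlap between the groups. *Igfbp4*, a binding protein of the growth factors, had -1.08.

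Cholesterol is made by a chain of enzymes whose genes are activated together by the transcription factor *Srebf2* when sterols are low. All 23 listed genes were tested, 15 were lower and 2 higher, and the median was -0.61. *Hmgcs1*, at the entry of the pathway, read 6.77, 6.85 and 6.46 in the control and 4.48, 4.59 and 4.16 with GR24, 4.85-fold lower. The groups were far apart, and every GR24 array was lower. *Srebf2* was lower (-0.44), and so was *Sqle*, a later enzyme of the chain (-1.82). CCAAT was present in 14 of the 16 promoters found for this list (87.5%, against 34.3% and 36%), and a form of the sterol regulatory element in 0 (against 0.215% and 0.125%). The promoter of *Hmgcs1* (chr2:53382054-53382303, plus strand), chosen for its CCAAT matches, has them in capitals, here as the reverse complement ATTGG.
Hmgcs1: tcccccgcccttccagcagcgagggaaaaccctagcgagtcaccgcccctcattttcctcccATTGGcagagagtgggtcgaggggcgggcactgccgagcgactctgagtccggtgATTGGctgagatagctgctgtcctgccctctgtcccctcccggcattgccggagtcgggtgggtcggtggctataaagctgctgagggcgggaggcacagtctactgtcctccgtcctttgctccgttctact

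Fatty acid genes did not share that direction. Of 17 genes of fatty acid and triglyceride synthesis 7 were higher and 3 lower, with a median of 0.12. *Elovl6*, which lengthens fatty acids, read 1.56, 1.34 and 1.61 in the control and -0.32, -0.35 and -0.56 with GR24 (log2 fold change -1.91), and *Gpam*, which starts triglyceride synthesis, -1.69, -1.69 and -1.69 against -0.26, -0.14 and -0.25 (1.47). Each gene was well apart between the groups, in opposite directions. *Fasn*, fatty acid synthase, was not past the threshold (-0.12), but passed it at -0.28 without control replicate 2. Of 19 genes of fatty acid uptake and oxidation 8 were higher and 4 lower, with a median of 0.18. The lipoprotein lipase *Lpl* (-1.57) was lower, and *Angptl4* (1.5), which inhibits that lipase, was higher, as were the mitochondrial enzymes *Acadvl* (0.85), *Acaa2* (0.82) and *Cpt1a* (0.73). *Cd36*, a fatty acid transporter, was not well above background on any GR24 array and was at least 3.02-fold lower.

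**Figure D3:**
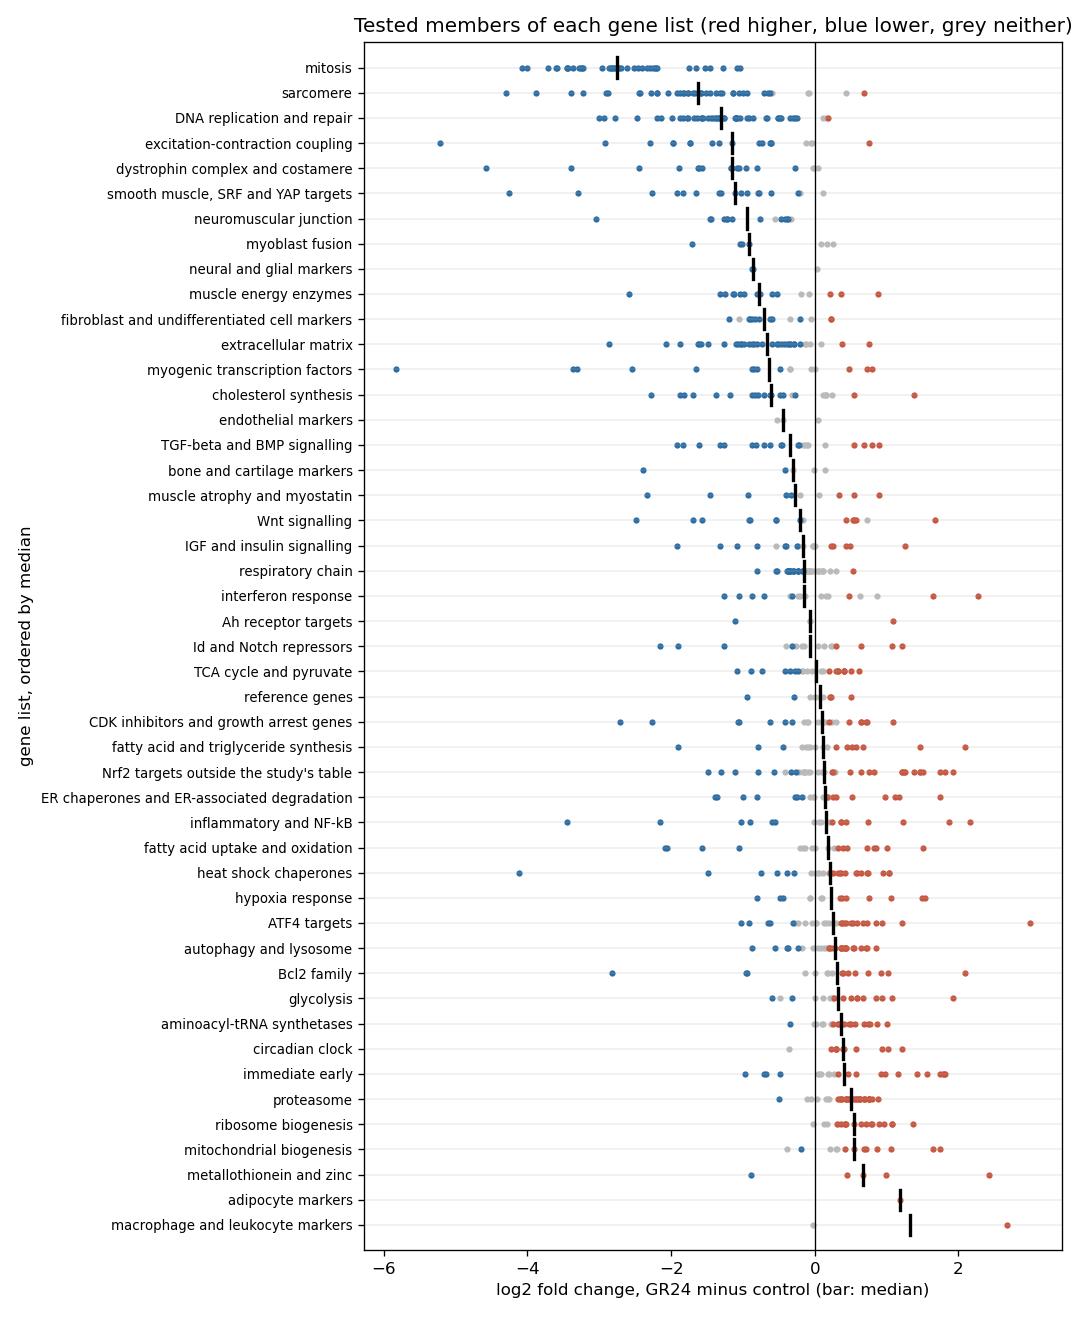
Log2 fold change of GR24 over control for the tested members of each gene list, with 1 point per gene and a black bar at the list's median. The mitosis list has the lowest median, -2.75, and the median over all named genes is 0.07.

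Among the increases were genes of protein turnover and of ribosome production. All 34 proteasome genes listed were tested, 27 were higher and 1 lower, and the median was 0.51. *Psmd11*, a subunit of the regulatory particle, read 1.96, 1.85 and 1.73 in the control and 2.78, 2.87 and 2.53 with GR24, a log2 fold change of 0.88, and *Psmd3* (0.80) and *Psmb3* (0.76) were close. *Psme4*, an alternative activator of the proteasome, was the lower gene (-0.50). TGACNNNGC, the core of the antioxidant response element, was present in 6 of 30 proteasome promoters (20%, against 10.2% and 12.2%). Of 19 ribosome biogenesis genes 15 were higher and 0 lower, with a median of 0.55. *Nop2*, which methylates ribosomal RNA, read 2.82, 2.67 and 2.71 against 3.93, 3.98 and 3.54, and *Polr1b*, a core subunit of the polymerase that makes ribosomal RNA, -1.83, -1.82 and -1.17 against -0.12, -0.23 and -0.37. Both were higher on every GR24 array, with log2 fold changes of 1.08 and 1.37. CACGTG, the box bound by Myc, was present in 3 of 17 promoters of this list (17.6%, against 5.79% and 8.1%).

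Mitochondrial genes were read in several lists. Of 13 genes of mitochondrial biogenesis tested 8 were higher and 1 lower, with a median of 0.55. *Twnk*, the helicase of mitochondrial DNA, read 0.00, 0.02 and -0.20 in the control and 1.73, 1.76 and 1.54 with GR24 (log2 fold change 1.74, adjusted p = 3.49e-07), and *Polg2*, a subunit of its polymerase, -0.02, -0.08 and -0.33 against 1.56, 1.64 and 1.27 (1.64, adjusted p = 2.07e-06). The transcription factors *Tfb2m* (1.06) and *Tfam* (0.69) were higher with them. The subunits of the respiratory chain did not rise. Of 42 tested 19 were lower and 1 higher, and the median was -0.15, a small value that stayed below 0 under each alternative, at -0.18 to -0.04. *Ndufs4*, of complex I, read -0.50, -0.57 and -0.51 against -1.37, -1.22 and -1.41 (log2 fold change -0.81), and 0 genes of this list changed by over 2-fold. The remaining 22 chain subunits were not past the threshold, and a difference between these lists was not tested. Of 22 genes of the TCA cycle and of pyruvate use 9 were higher and 7 lower, and their median, 0.02, ranged from -0.02 to 0.12 over the alternatives. *Idh2*, an isocitrate dehydrogenase of mitochondria, had -1.08 and *Pc*, pyruvate carboxylase, 0.62.

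Genes of glucose uptake and breakdown changed in both directions, more of them upward. Of 18 glycolysis genes 10 were higher and 2 lower, with a median of 0.33. *Slc2a1*, the basal glucose transporter, read 0.66, 0.54 and 0.41 in the control and 2.52, 2.64 and 2.25 with GR24 and was 3.82-fold higher (adjusted p = 5.3e-07). This is the reverse of the muscle transporter *Slc2a4*, which was 2.37-fold lower. *Hk2* (1.07) and *Hk1* (0.93), which trap glucose in the cell, were higher, and *Ldhb*, a lactate dehydrogenase subunit, was lower (-0.59). Of 14 hypoxia response genes 7 were higher and 3 lower, with a median of 0.22. *Ero1a*, an oxidase of protein folding, read 0.69, 0.76 and 0.53 against 2.22, 2.28 and 2.09, and *Vegfa*, the vessel growth factor, was not past the threshold by its brightest probe (0.08) but was higher with its tested probes averaged (0.60).

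Stress responses were mixed. Of 28 ATF4 targets 13 were higher and 5 lower, with a median of 0.25. *Gdf15*, a secreted stress hormone, had no control array well above background and was at least 6.36-fold higher. *Slc3a2*, of amino acid transporters, read 2.95, 2.88 and 2.68 against 4.14, 4.09 and 3.92 (log2 fold change 1.22). *Asns*, the asparagine synthetase often used as a readout of ATF4, was not past the threshold (0.02), and *Nupr1* (-1.02), a stress gene, was lower. Of 20 aminoacyl-tRNA synthetases, which charge transfer RNAs, 14 were higher and 1 lower, with a median of 0.37. *Sars1*, for serine, had 1.01, *Hars1*, for histidine, 0.86 and *Kars1*, for lysine, -0.34. TGATGNAA, the core of the ATF4 motif, was present in 5 of 17 promoters of the synthetases (29.4%, against 3.27% and 2.13%).

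Chaperones of the endoplasmic reticulum, with 8 higher and 7 lower of 23 and a median of 0.14, had shares near those of all genes. *Pdia6*, which forms disulphide bonds, read 6.86, 6.96 and 6.82 in the control and 5.53, 5.59 and 5.36 with GR24, and *Atf6*, a sensor of misfolded protein, 5.02, 5.07 and 4.85 against 3.66, 3.66 and 3.53. Both fell without overlap, by 1.39 and 1.36, while *Dnajc3* (1.17), a cochaperone, and *Sel1l* (1.11), of the export machinery, were higher. Of 27 heat shock chaperones 14 were higher and 6 lower, with a median of 0.21. *Hspb3*, a small heat shock protein of muscle, read 1.36, 1.28 and 1.15 against -2.75, -2.92 and -2.91 and was 17.4-fold lower, and its partner *Hspb2* had -1.49. In the other direction, *Hspb8* and its partner *Bag3*, which deliver damaged protein to autophagy, had 1.04 and 1.04. Small heat shock proteins thus changed both ways. Of 30 genes of autophagy and lysosomes 19 were higher and 5 lower, with a median of 0.28, among them *Gabarapl1* (0.73), of the autophagosome membrane, *Tfe3* (0.64), a transcription factor of lysosomal genes, and *Optn* (-0.87), an autophagy receptor.

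Of 18 inflammatory genes 8 were higher and 6 lower, with a median of 0.15. These shares were not far from those of all genes, 35.7% higher and 26.9% lower. *Cxcl12*, a chemokine that guides progenitor cells, read 3.71, 3.85 and 3.61 in the control and 0.38, 0.24 and 0.19 with GR24 and was 11-fold lower, and *Vcam1*, an adhesion molecule for leukocytes and myoblasts, 4.44, 4.50 and 4.22 against 2.44, 2.11 and 2.15, 4.45-fold lower. The chemokines *Cxcl1* and *Ccl2* went up, from -1.43, -1.16 and -1.39 to 0.91, 0.78 and 0.83 and from -3.34, -3.16 and -3.28 to -1.28, -1.41 and -1.50. Chemokines were therefore apart in direction, each with separate groups. Of 18 interferon response genes 3 were higher and 5 lower, with a median of -0.15. The antiviral genes *Isg15* (1.65) and *Rsad2* (2.27) were higher.

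Fast response genes were mixed, and most of the clock genes tested were higher. Of 22 immediate early genes 12 were higher and 4 lower, with a median of 0.40. *Klf4*, a transcription factor, read 1.95, 2.00 and 1.88 in the control and 3.81, 3.90 and 3.53 with GR24 and was 3.49-fold higher. *Dusp5*, a phosphatase of the kinase ERK, had 1.79, *Fosl1*, a partner of Jun, 1.56 and *Myc* 1.16, whereas *Jun* (-0.70) and *Klf2* (-0.97) were lower. Of 12 clock genes 11 were higher and 0 lower, with a median of 0.39. *Clock*, a driver of the cycle, read -3.51, -3.88 and -4.15 against -2.62, -2.57 and -2.68 (log2 fold change 1.22, adjusted p = 1.63e-05). *Nr1d1*, a repressor in its feedback loop, read -1.04, -1.03 and -1.41 against -0.08, -0.05 and -0.28 (1.02, adjusted p = 0.000465). Driver and repressor rose together, and with 1 time point their phase cannot be read. CACGTG, which clock factors bind, was present in 1 of 11 promoters of this list (9.09%, against 5.79% and 8.1%).

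Nrf2 targets that the study did not tabulate changed in both directions. Of 37 tested 17 were higher and 7 lower, with a median of 0.13. *Gsr*, glutathione reductase, read -2.22, -2.42 and -2.48 in the control and -0.98, -0.82 and -0.92 with GR24 (log2 fold change 1.47), and *Osgin1* (1.75), *Maff* (1.81) and *Gss* (1.38), glutathione synthetase, were higher. *Slc40a1*, the iron exporter, was lower (-1.31). *Aldh3a1*, an aldehyde dehydrogenase that is a target of Nrf2 and of the Ah receptor, read 8.62, 8.95 and 8.73 against 7.66, 7.73 and 7.58 (-1.11). It was the lower of 2 changed genes among the 4 Ah receptor targets tested, with *Arnt* (1.09), the partner of that receptor, and the median was -0.07 in this scaling, 0.03 with the percentile over all spots, -0.20 on slide 1 and 0.20 on slide 2, so it has no settled direction. Of 5 metallothionein and zinc genes 4 were higher and 1 lower, with a median of 0.67. *Mt1*, which binds zinc and copper, read 0.66, 0.58 and 0.51 in the control and 3.03, 3.02 and 2.97 with GR24 and was 5.36-fold higher, and the zinc importer *Slc39a14* (0.99) rose as well, while *Mt3* (-0.89) fell.

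Genes that serve as references were not all stable. Of 11 tested 3 were higher and 2 lower, with a median of 0.07. *Actb*, cytoplasmic actin, read 7.81, 8.04 and 7.77 in the control and 6.92, 6.98 and 6.87 with GR24 (log2 fold change -0.95, adjusted p = 8.79e-06). *Gapdh*, of glycolysis, read 6.91, 7.14 and 6.98 against 7.49, 7.60 and 7.43 (0.50, adjusted p = 0.000374). A ratio of a gene to *Actb* and 1 to *Gapdh* would therefore differ. *Hprt1*, of purine salvage, was not past the threshold (0.00).

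The largest decreases also held genes outside these lists. *Cyp2j4*, a cytochrome P450, was 48.5-fold lower, *Anxa10*, an annexin, 38.2-fold lower and *Marcks*, a membrane substrate of protein kinase C, 21.5-fold lower. *Qrfpr*, a receptor of a neuropeptide, read 0.29, 0.34 and 0.22 against -4.0, -3.39 and -3.84 and was 16.3-fold lower. *Pimreg* (-3.92), a mitotic regulator, *Parpbp* (-3.89), which acts in DNA repair, and *Ly49i2* (-3.57), of the natural killer cell receptor family, were also among them. In each of these genes every GR24 array lay under the 9 other arrays of the series.

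Signal was well above background on all 3 control arrays and on no GR24 array in 132 genes, and the reverse held in 60 genes, a description that already sets their direction. *Smim5*, a small membrane protein, was at least 20.8-fold lower, *Ceacam6* at least 12.8-fold, *Ly49i3* at least 12-fold and *Aspg*, an asparaginase, at least 11-fold. *Smpx*, a small protein of muscle, read -1.26, -1.18 and -1.35 in the control and -5.39, -5.52 and -5.27 with GR24. For it the fitted decrease was 17.5-fold, and for *Cacng6*, a calcium channel subunit, 12-fold, for *Wnt10a*, a ligand, 10.5-fold and for the non-coding RNA *LOC120101628* 10.5-fold, none of them a bound, since the GR24 signals lay at or above the lowest signal well above background. In the other direction *Slc22a4*, a cation transporter, was at least 9.12-fold higher, *Col7a1*, a collagen, at least 6.41-fold, *Akap14*, an anchor of protein kinase A, at least 5.70-fold, *Cftr*, a chloride channel, at least 5.42-fold and *Cimap2* at least 5.40-fold. *Spmip7* was at least 21.3-fold higher, and the fitted increase of *C3h15orf48*, 12.7-fold, is no bound.

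Among genes well above background throughout, *Vgf*, the precursor of neuroendocrine peptides, had the largest increase outside the study's table. It read -3.84, -3.89 and -3.94 in the control and -0.33, -0.28 and -0.41 with GR24, 11.7-fold higher (log2 fold change 3.55, SE 0.11, adjusted p = 1.94e-09). *Slc11a1*, a metal transporter of phagosomes, read -3.31, -3.46 and -3.65 against -0.53, -0.76 and -0.70 and was 7.01-fold higher. *Zfand2a*, which acts with the proteasome under arsenite stress, read 3.33, 3.28 and 3.14 against 5.64, 5.74 and 5.38 and was 5.04-fold higher. None of these overlapped. Also among the largest increases were *Rell2* (2.81), *Angptl6* (2.74), an angiopoietin-like factor, *Cd68* (2.67), *Gpr146* (2.62), an orphan receptor, and *Ampd3* (2.55), an AMP deaminase. The non-coding RNA *LOC103691375* (2.43), *Spata1* (2.36), *Alg10* (2.30), of protein glycosylation, *Gnat2* (2.28), a transducin subunit, and *Tlcd4* (2.27) were among them too.

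Several probes of a gene need not move alike. Of 2326 genes with at least 2 tested probes, 1045 had all probes called in 1 direction and 95 had probes called in opposite directions. For *Ripor2*, an inhibitor of RhoA, 5 probes of 1 transcript had log2 fold changes of 1.55 to 1.69 and a probe of another transcript had -1.82 (SE 0.057). For *Igf1*, the growth factor, 3 probes had -3.18, -2.24 and -2.23, while the brightest had 0.25 with an adjusted p of 0.0498, a call lost when any array but control replicate 3 was left out, with values of 0.20 to 0.30. *Tsc22d1*, a transcription regulator, had 0.95 and 1.03 beside -1.13. *Rarb*, a retinoic acid receptor, had 0.61 beside -2.55, *Purg* -0.52 beside 1.77, and *Iws1*, an elongation factor, -0.31 and -0.50 beside 1.72. The probe of *Igf1* with -2.23, that of *Rarb* with -2.55 and that of *Iws1* with 1.72 were at background in a whole group, so those sizes depend on the background correction. The values of these 6 genes belong to single probes and to no gene as a whole.

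The arrays of pinosylvin and resveratrol share their control arrays with GR24, and differences between compounds were not tested. Against those controls, the median log2 fold change of the sarcomere list was -1.63 with GR24, 0.10 with pinosylvin and -0.32 with resveratrol. For mitosis the medians were -2.75, -1.62 and -0.88, for DNA replication and repair -1.30, -0.71 and -0.67, and for cholesterol synthesis -0.61, -1.09 and -0.23. The extracellular matrix list had -0.66, -0.05 and -0.20, the SRF and YAP list -1.11, -0.01 and -0.13, and the proteasome list 0.51, 0.10 and 0.15. *Myog* had -5.83, 0.73 and -0.51, *Acta2* -4.26, 0.13 and -0.09, *Cxcl12* -3.45, -0.24 and -0.33, and *Cdk1* -2.81, -1.39 and -0.81.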

How the data were processed

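RNA of 12 myotube cultures had been measured on Agilent SurePrint G3 Rat arrays of 1 colour, and 6 of them enter the comparison. The deposited array files hold, per the file headers, the processed signal as an intensity from Agilent Feature Extraction 12.0.0.7, with background subtracted within the array and no normalization between arrays. The series table holds log2 values normalized by the authors with a method that is not stated, and served as an alternative. Its values lay within a median of 0.0088 to 0.011 of quantile-normalized median signals on every array, so it is close to the quantile alternative. The deposited marks of the scanner software are 0 or 1 values, such as well above background.

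Outlier spots were set to missing, control spots left out, and spots of a probe averaged. Signals were divided by the array's 75th percentile over probes. A probe was tested if at least a share of 0.5 of its spots passed the well-above-background mark on all 3 arrays of any of the 4 groups. Group means were fitted to the 12 arrays together in limma 3.58.1 (R 4.3.3), and p-values were adjusted by Benjamini and Hochberg's method over all tested probes, with a threshold of 0.05. RefSeq symbols (GRCr8) named 21109 of 45598 probes (46.3%). For a gene, the brightest of its tested probes, by the mean of the 12 arrays, was taken.

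The first main scaling took the percentile over all spots. It was replaced by the percentile over probes after its counts had been seen to differ from an earlier analysis of these data. Members and lists were chosen with earlier results of these data known. Outside the lists, the genes named are among the 20 largest decreases and 15 largest increases among genes well above background on all 6 arrays, the 8 in each direction with the largest fold, against the lowest signal well above background where a signal lay under it, among genes at background in a group, and the 6 widest gaps between probes of a gene. Members picked out within a list were chosen after their values were seen, some for their role and most for their size. Some genes are not reported here. Each list has its result in the text.

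Replicates 1 and 2 of every group were on slide 1 and replicate 3 on slide 2. Deviations from the group mean correlated across probes at r = 0.42, 0.28 and 0.66 between control and GR24 arrays of the same replicate number, at 0.28 and 0.32 between different numbers within slide 1, and at -0.53 to -0.41 between slides. The labels number the replicates and the paper gives 3 independent experiments, but neither states which experiment a number stands for. Pairing by number was read from these correlations, so the replicate block is an alternative only. Probes are not independent replicates. Other alternatives were quantile normalization, normexp with an offset of 50 on the median signals (the planned mean signals are not in the files), other filters, the slide as a block, an average of all the tested probes of a gene, and leaving out each array in turn.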

Additional observations from a re-analysis of the deposited data

How the results depend on the processing

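Under all alternatives the probe counts stayed within 1.5 times their value of 7658 higher and 6196 lower: 8719 and 5593 with quantile normalization, 7242 and 6062 with normexp, 8516 and 5462 in the deposited series table, 7020 and 5819 without a filter, 7278 and 5402 with probes well above background on all 6 arrays, 7090 and 5686 with those 6 arrays alone, 7691 and 6237 with trend and robust, and 8800 and 7365 with the replicate block. With the slide as a block there were 8786 and 7375, and on slide 1 alone 7877 and 6756. Leaving out each array in turn gave 6800 to 7582 higher and 5711 to 6147 lower. The percentile over all spots, the first scaling, gave 9223 and 5358. The scaling in use and the normexp form were chosen after results were seen, and the scalings shift the median of all probes by up to 0.10.

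The medians of the sarcomere list (-1.75 to -1.46), the mitosis list (-2.82 to -2.51) and the proteasome list (0.44 to 0.61) kept their direction throughout. Medians that moved by over 1.5 times were those of myogenic factors (-0.75 to -0.42), neuromuscular junction (-1.08 to -0.63), fusion (-0.94 to -0.45), atrophy (-0.39 to -0.03), TGF-beta (-0.53 to -0.20), Wnt (-0.25 to -0.11), IGF (-0.24 to -0.06), interferon (-0.18 to -0.05), the respiratory chain (-0.18 to -0.04), and bone (-0.36 to -0.05), endothelial (-0.64 to -0.20) and neural markers (-0.91 to -0.40). Among small positive medians they were arrest genes (0.04 to 0.20), fatty acid synthesis (0.01 to 0.29) and oxidation (0.12 to 0.28), endoplasmic reticulum (0.06 to 0.24), heat shock (0.19 to 0.35), inflammation (0.10 to 0.25), hypoxia (0.18 to 0.35), autophagy (0.18 to 0.38), Nrf2 targets (0.10 to 0.23) and reference genes (0.02 to 0.23). The medians for the TCA cycle (-0.02 to 0.12), Id and Notch (-0.09 to 0.04) and the Ah receptor (-0.21 to 0.20) changed sign. With an average of all the tested probes of a gene, *Igf1* (-1.85), *Rarb* (-0.97), *Purg* (0.63) and *Iws1* (0.30) changed direction, since their probes disagree, as did *Cdkn1a* (0.10), not past the threshold, and *Atp2a2* (-0.93), *Mef2d* (0.57) and *Vegfa* (0.60) passed the threshold. Genes not past the threshold changed sign in places: *Atp2a2* with quantile normalization (0.07), all spots (0.05) and the series table (0.05), *Csf1r* with quantile normalization (0.09), all spots (0.07) and slide 1 (0.02), and *Des* with all spots (0.01). Leaving out 1 array in turn gave ranges that span 0 for *Des* (-0.18 to 0.01), *Fasn* (-0.28 to 0.01), *Asns* (-0.05 to 0.14), *Mef2d* (-0.03 to 0.07) and *Csf1r* (-0.33 to 0.31). *Fbxo32* passed on slide 1 (-0.34), and *Igf1* missed it with normexp (0.21), without a filter and with the 6 arrays alone. *Chrna1* passed with the replicate block, the slide block (-0.56) and slide 1 (-0.69). *Cdkn1a* passed with both blocks and with trend and robust (-0.15). The replicate block changed no other call of a gene named here. *Pdgfra* and *Cd44* missed the threshold without a filter and with the 6 arrays alone, and *Pdgfra* with normexp (0.13). The cause was not tested.

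The 3 arrays a group limit what can be said of small changes and dim probes. Signal was well above background in 58.0% to 64.3% of spots, and below it a fold change depends on the background correction.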

Other observations

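Some gene families were grouped by their symbols and chosen after their values were seen, so their counts are a description, and a few of their members are also in the lists above. Of 6 Ly49 genes, receptors of natural killer cells, 5 were lower and 0 higher with GR24, with a median log2 fold change of -3.51, and of 6 kallikrein genes, serine proteases, 6 were lower, with a median of -2.40. Members of both families are close in sequence, and probes may bind more than 1 of them. Of 14 semaphorins, guidance signals, 10 were lower and 0 higher (median -1.0), of 6 fibroblast growth factors 5 were lower and 1 higher (median -1.20), of 29 potassium channel subunits 15 were lower and 4 higher (median -0.66) and of 11 tubulins 8 were lower and 0 higher (median -0.86). In the other direction, of 68 mitochondrial ribosomal proteins 42 were higher and 6 lower (median 0.32), of 162 zinc finger genes with the prefix Zfp 75 were higher and 25 lower (median 0.28), and of 17 subunits of the vacuolar ATPase 11 were higher and 1 lower (median 0.24). The 88 cytoplasmic ribosomal proteins had a median of -0.07 in this scaling and 0.03 with the percentile over all spots, with 0 higher and 10 lower. Of 128 long non-coding RNAs 20 were higher and 41 lower. Of 10631 probes without a gene name 2719 were higher and 2571 lower.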
